A study of Mus musculus with 6 samples.

Results

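The aminoacyl-tRNA synthetase genes encode the enzymes that join each amino acid to its transfer RNA. The 36 genes described here were taken by name, as the rows whose Ensembl identifier maps to a listed synthetase symbol. They are 20 genes for cytosolic enzymes and 16 for mitochondrial enzymes, out of 55487 gene identifiers in the deposited tables. All 36 passed the filter on low counts, which left 12486 genes in the test. The libraries are RNA sequencing of naive CD4+ T cells, which have not yet met their antigen, from the mesenteric lymph nodes (mLN) in 3 libraries and from the spleen in 3 libraries. Every mouse was wild type (WT), of the C57BL6/J strain, with no treatment, and the cells were freshly prepared. The labels give no age, number of animals or sorting markers. They also do not say whether replicates are separate animals, so a p-value here reflects library-to-library spread that may be technical.

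Protein synthesis in the cytosol and in mitochondria uses separate sets of synthetases, with few enzymes shared. Several cytosolic synthetases sit together in a large multi-enzyme complex held by scaffold proteins. Amino acid shortage leaves transfer RNAs uncharged, which activates the kinase GCN2 and, through eIF2 phosphorylation, the transcription factor ATF4, whose known targets include cytosolic synthetase genes. Naive T cells are small resting cells with little protein synthesis, which increases when they meet antigen.

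The expected counts summed to between 13205499 and 20054205 in the mLN libraries and between 14224966 and 17862485 in the spleen libraries. Genes of the mitochondrial genome took 2.12% to 2.43% of counts in mLN libraries and 3.7% to 4.11% in spleen libraries, and ribosomal protein genes took 7.84% to 8.65% in mLN libraries and 11.4% to 11.6% in spleen libraries. The T cell marker list (in CPM, which puts libraries on a common depth, here with TMM factors) summed to between 4141 and 4182 CPM in mLN libraries and between 4570 and 4718 CPM in spleen libraries, and the naive T cell list to between 4965 and 5074 CPM in mLN libraries and between 4697 and 4866 CPM in spleen libraries. Markers of neutrophils, B cells and myeloid cells were lower in mLN. The neutrophil list of 10 genes, led by S100a9, Ngp and Csf3r, summed to between 0.15 and 1.64 CPM in mLN libraries. In spleen libraries it summed to between 45.5 and 49.6 CPM. Of its tested genes 7 of 7 were lower, and Elane was at 0 in all 6 libraries. These 7 had mLN means of 0.0165 to 0.198 CPM, where 3 counts correspond to 0.15 to 0.227 CPM. They passed the filter through the spleen libraries, so their direction was set by it and the count is a description only. Tyrobp and Csf1r of the myeloid list, at means of 0.224 and 0.855 CPM in mLN, passed in the same way. The B cell list summed to between 359 and 391 CPM in mLN libraries and between 568 and 607 CPM in spleen libraries, with 8 of 10 genes lower, and the myeloid list to between 13 and 14 CPM in mLN libraries and between 48.3 and 54.1 CPM in spleen libraries, with 4 of 6 tested genes lower. The NK cell list summed to 58.2 to 73.1 CPM in mLN libraries and 46.4 to 54.6 CPM in spleen libraries. Most of this was Prf1, at means of 59.9 CPM in mLN and 43.7 CPM in spleen. Prf1 was 1 of 4 tested genes and was higher at 0.46 (edgeR adjusted p = 0.00135). The other tested genes, Eomes, Klrd1 and Nkg7, were at -0.50, -0.59 and -0.90 and were not called. The median of the NK cell list was -0.55. The memory or effector T cell list of 12 genes summed to 126 to 135 CPM in mLN libraries and 142 to 159 CPM in spleen libraries. Of its 4 tested genes 0 were higher and 1 was lower, Cd44, at -0.36 (edgeR adjusted p = 0.0387). On centred log2 TPM 0 of them were called. Of the 2 CD8 and 4 regulatory T cell markers, 0 were called. The part of these other cells in the synthetase values was not tested.

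The synthetase genes split. In edgeR's quasi-likelihood test with Benjamini-Hochberg adjustment over all genes, 9 of the 36 were higher in mLN at an adjusted p under 0.05, which is 25% of them, beside 16.1% of all genes tested. There were 4 lower in mLN, which is 11.1%, beside 13.5% of all genes tested. Without mLN replicate 1 the lower genes were Dars and Lars2 alone, or 2 genes. On log2 TPM, where the median of all genes was 0.21, 13 were higher and 1 lower by limma, beside 2757 and 384 of all genes. With each library centred on its median, 5 were higher (Vars, Yars, Mars1, Aars and Aars2) and 1 lower (Lars2), beside 798 and 947 of all genes. In the full comparison the remaining 23 were not called. The median log2 fold change, mLN minus spleen, was 0.01 for the cytosolic genes, 0.05 for the mitochondrial genes and -0.01 for all genes tested. The 9 higher genes were Vars, Yars, Mars1, Aars, Wars, Cars and Iars of the cytosol and Aars2 and Vars2 of mitochondria. The 4 lower genes were Lars2 of mitochondria and Dars, Farsb and Qars of the cytosol. By catalytic class, which follows the fold of the active site, 7 of 19 class I genes were higher and 2 lower. Of 17 class II genes 2 were higher and 2 lower. This contrast moved with the processing. On log2 TPM 6 class I and 7 class II genes were higher, with 1 and 0 lower. On centred log2 TPM 3 class I and 2 class II genes were higher, with 1 and 0 lower. The classes were not tested against each other.

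**Figure D1:**
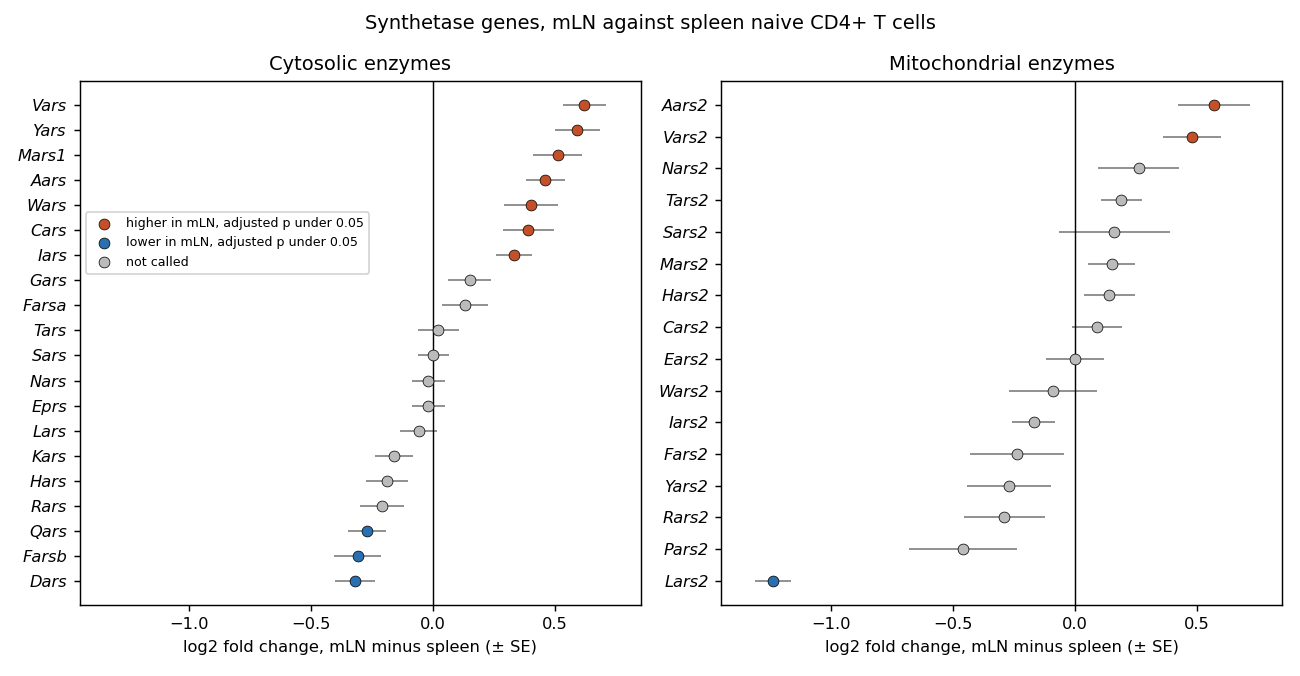
Log2 fold change (mLN minus spleen) with its standard error for each of the 20 cytosolic genes (left) and 16 mitochondrial genes (right), 3 libraries a tissue. Colours mark the 9 genes higher in mLN, the 4 lower in mLN and the 23 not called. Lars2, at -1.24, lies apart from the other genes, whose values run from -0.46 to 0.62.

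Among the cytosolic enzymes, Vars, which charges transfer RNA with valine, had the largest difference upward. It had 135, 145 and 147 CPM in mLN libraries, against 82, 89.2 and 106 CPM in spleen libraries. Every mLN library was above every spleen library. The log2 fold change was 0.62 (SE 0.0877, adjusted p = 1.64e-05 by edgeR), or 1.54-fold. Yars, the tyrosine enzyme, had 60.3, 68.1 and 64.4 CPM in mLN libraries, against 43.8, 43.3 and 41.1 CPM in spleen libraries, also without overlap, with a log2 fold change of 0.59 (SE 0.0923, edgeR adjusted p = 5.02e-05).

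Mars1, the methionine enzyme that also charges the initiator transfer RNA, had 80.9, 89.1 and 85 CPM in mLN libraries, against 57.4, 52 and 70.2 CPM in spleen libraries. The groups did not overlap, and spleen replicate 3 was the nearest to the mLN libraries. Its log2 fold change was 0.51 (SE 0.0998, edgeR adjusted p = 0.000547). Mars1 shares 68 exonic bases on the opposite strand with Ddit3, a stress-induced transcription factor gene, and Ddit3 went the other way, at -0.44 (edgeR adjusted p = 0.0185). How the counting used strand is not given in the sources, so reads in shared stretches cannot be assigned with certainty. The expected counts of Mars1 were whole numbers in 6 libraries.

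Aars, the alanine enzyme, had 119, 108 and 121 CPM in mLN libraries, against 83.6, 86.2 and 83.4 CPM in spleen libraries. The groups were far apart for their spread, with a log2 fold change of 0.46 (SE 0.0786, edgeR adjusted p = 0.000124). In the annotation 14.3% of its exonic bases are shared, on the same strand, with Exosc6, an exosome subunit gene, so a part of these reads could belong to either gene. Iars, the isoleucine enzyme, had 132, 133 and 134 CPM in mLN libraries, against 110, 107 and 99.8 CPM in spleen libraries. This was the narrowest spread of the called genes in mLN, an SD of 0.869 CPM, and the log2 fold change was 0.33 (SE 0.0735, edgeR adjusted p = 0.00143). By limma the call was lost on log2 TPM, at 0.39 (adjusted p = 0.0914), and on centred log2 TPM, at 0.14 (adjusted p = 0.564).

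Wars, the tryptophan enzyme, which is also known as an interferon-induced gene, had 43.4, 51.4 and 54.7 CPM in mLN libraries, against 38, 34.3 and 40.8 CPM in spleen libraries. Its groups were close, with mLN replicate 1 just above spleen replicate 3, and the log2 fold change was 0.40 (SE 0.111, edgeR adjusted p = 0.00804). Cars, the cysteine enzyme, had 45.9, 42.3 and 50.9 CPM in mLN libraries, against 35.6, 33.8 and 37.1 CPM in spleen libraries, with no overlap and a log2 fold change of 0.39 (SE 0.106, edgeR adjusted p = 0.00793). Both calls were lost when spleen replicate 2 or mLN replicate 3 was left out, with adjusted p up to 0.0707 for Wars and 0.0552 for Cars, and also on centred log2 TPM (limma adjusted p = 0.0627 and 0.0935).

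**Figure D2:**
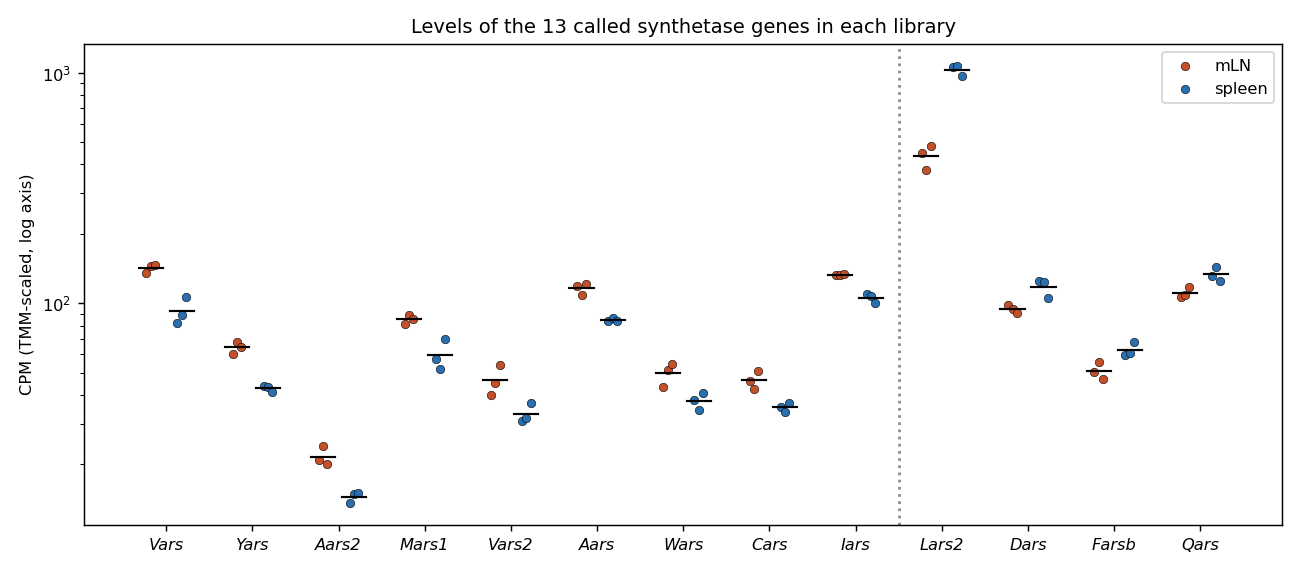
CPM of the 13 called genes in each of the 3 mLN and 3 spleen libraries, on a log axis. Points are libraries and black lines are group means. Left of the dotted line are the 9 genes higher in mLN and right of it the 4 lower in mLN, led by Lars2.

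Several of these genes are known ATF4 targets, so the letters of their promoters are shown. RefSeq promoters on GRCm38.p6, of 250 bases before and 50 after the annotated start, were matched for 27 of the 36 members. Promoters of Cars, Hars, Lars, Nars, Rars, Vars, Wars, Hars2 and Pars2 were not used here. The first motif was TGATGNAA, a form of the element that ATF4 binds with C/EBP partners, read on both strands. It was present in 5 of the 27 members, or 18.5%, and in 4.51% of the 27025 genes with a promoter. All 5 were cytosolic, of 13 cytosolic and 14 mitochondrial genes matched. It was found in 3 of 6 higher members (Aars, Iars and Yars), in 0 of 4 lower members and in 2 of 17 members that were not called (Gars and Tars). The E-box CACGTG, a palindrome bound by MYC with MAX and by related factors, was present in Aars, Iars, Tars, Farsb and Ears2, which is 18.5% of members and 8.09% of all genes. A match is a description of letters and does not show that a factor binds there.

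The stretches below run from 160 bases before the RefSeq start to 30 bases after it, 5′ to 3′ along the gene, for the 5 genes with a TGATGNAA match. Capitals mark TGATGNAA on either strand (its reverse reads TTNCATCA) and CACGTG. They lie at chr8:111033682-111033871 (plus strand) for Aars, chr13:49681970-49682159 (plus strand) for Iars, chr4:129189743-129189932 (plus strand) for Yars, chr6:55037841-55038030 (plus strand) for Gars and chr15:11399629-11399818 (minus strand) for Tars.
Aars: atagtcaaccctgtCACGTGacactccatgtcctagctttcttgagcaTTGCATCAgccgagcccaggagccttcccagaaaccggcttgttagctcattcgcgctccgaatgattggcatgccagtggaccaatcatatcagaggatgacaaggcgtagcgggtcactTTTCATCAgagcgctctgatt
Iars: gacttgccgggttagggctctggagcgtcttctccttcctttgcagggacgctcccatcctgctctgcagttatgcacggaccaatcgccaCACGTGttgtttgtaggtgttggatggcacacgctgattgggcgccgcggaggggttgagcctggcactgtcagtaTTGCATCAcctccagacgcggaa
Yars: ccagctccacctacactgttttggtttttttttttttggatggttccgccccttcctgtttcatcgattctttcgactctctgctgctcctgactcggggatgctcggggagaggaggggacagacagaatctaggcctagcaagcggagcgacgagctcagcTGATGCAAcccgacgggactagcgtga
Gars: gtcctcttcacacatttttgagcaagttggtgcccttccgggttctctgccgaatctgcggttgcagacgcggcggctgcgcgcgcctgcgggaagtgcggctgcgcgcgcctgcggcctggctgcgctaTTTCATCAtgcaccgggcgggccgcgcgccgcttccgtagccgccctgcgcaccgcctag
Tars: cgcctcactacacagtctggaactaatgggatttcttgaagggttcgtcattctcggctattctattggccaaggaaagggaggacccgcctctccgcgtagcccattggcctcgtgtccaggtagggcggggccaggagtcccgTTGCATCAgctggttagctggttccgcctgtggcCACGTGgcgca

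Positions are counted from the RefSeq start, which for Aars lies 37 bases upstream of the nearest GENCODE vM21 transcript start and within 7 bases of one for the other 4 genes. In Aars the matches begin 112 bases before that start and at base 10 after it, and in Iars and Yars they begin at bases 8 and 4 after it. In Gars and Tars the match lies before the start, at 30 and 15 bases. Aars holds 2 matches and each of the other genes 1. Gars, the glycine enzyme, which serves both the cytosol and mitochondria, had 94.6, 87.7 and 90.7 CPM in mLN libraries, against 73.3, 89.5 and 82.6 CPM in spleen libraries. The groups overlapped, and it was not called, with a log2 fold change of 0.15 (edgeR adjusted p = 0.208). Tars, the threonine enzyme, had 95.5, 86.7 and 95.5 CPM in mLN libraries, against 93.9, 96.2 and 83.9 CPM in spleen libraries, at 0.02 (edgeR adjusted p = 0.888).

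The lower cytosolic genes differed by less. Dars, the aspartate enzyme, had 98.6, 94.1 and 90.5 CPM in mLN libraries, against 125, 123 and 105 CPM in spleen libraries. The groups did not overlap, with a log2 fold change of -0.32 (SE 0.0831, edgeR adjusted p = 0.00604). The call was lost with a GC trend removed, at -0.10 (edgeR adjusted p = 0.269), and by limma on log2 TPM, at -0.05 (adjusted p = 0.759), and on centred log2 TPM, at -0.30 (adjusted p = 0.08). Qars, the glutamine enzyme, had 106, 109 and 117 CPM in mLN libraries, against 131, 144 and 125 CPM in spleen libraries, at -0.27 (SE 0.0778, edgeR adjusted p = 0.0125). Leaving out spleen replicate 2 or mLN replicate 1 ended the call, with adjusted p up to 0.0901, and on log2 TPM the sign of Qars changed, to 0.07 (limma adjusted p = 0.611).

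Farsa and Farsb encode the alpha and beta subunits of a single enzyme, the cytosolic phenylalanine synthetase. Farsb had 50.2, 55.8 and 47 CPM in mLN libraries, against 59.5, 61 and 68.2 CPM in spleen libraries. Farsb was lower in mLN, at -0.31 (SE 0.0953, edgeR adjusted p = 0.0185), and the call was lost without mLN replicate 1, mLN replicate 3 or spleen replicate 3, with adjusted p up to 0.066. It was also lost with a GC trend removed, at -0.20 (edgeR adjusted p = 0.0827), and by limma on log2 TPM, at -0.01 (adjusted p = 0.977). Farsa had 59.2, 58.5 and 66.8 CPM in mLN libraries, against 54.3, 52.9 and 61.7 CPM in spleen libraries, and was not called at 0.13 (edgeR adjusted p = 0.336). The ratio of Farsa to Farsb in CPM was therefore 1.18, 1.05 and 1.42 in mLN libraries, against 0.913, 0.868 and 0.904 in spleen libraries. The subunit ratio was above 1 in each mLN library and below 1 in each spleen library. It was looked at after both values were seen and is given without a test.

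The multi-synthetase complex also had calls in both directions. Of its 8 synthetase genes, Iars and Mars1 were higher, Dars and Qars lower, and Eprs, Kars, Lars and Rars were not called. Over all genes tested 16.1% were higher and 13.5% lower. On log2 TPM, centred or not, 1 of the 8 was higher (Mars1) and 0 were lower. Eprs, a fused enzyme for glutamate and proline, averaged 191 ± 6.42 CPM in mLN and 194 ± 14.4 CPM in spleen (SD, n = 3 each). Of the 3 scaffold genes, Aimp1 averaged 41.8 ± 2.45 CPM in mLN and 56.2 ± 2.51 CPM in spleen, at -0.43 (edgeR adjusted p = 0.0017). Eef1e1, which encodes AIMP3, averaged 26.3 ± 0.432 CPM in mLN and 33.8 ± 1.3 CPM in spleen, at -0.36 (edgeR adjusted p = 0.0189). Both scaffold genes were lower, and Aimp2, at -0.07, was not called (edgeR adjusted p = 0.745). With the length trend removed, and on log2 TPM, 0 of the 3 scaffold genes were called. On centred log2 TPM 1 was called lower.

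Of the most abundant uncalled cytosolic genes, Sars and Nars had close means. Sars, the serine enzyme, had 181, 178 and 177 CPM in mLN libraries, against 173, 183 and 181 CPM in spleen libraries. The groups overlapped, and mLN held 0.999 times the spleen level (edgeR adjusted p = 0.987). On log2 TPM, where the median of all genes was 0.21, Sars was called higher, at 0.28 (limma adjusted p = 0.0338). On centred log2 TPM Sars was at 0.03 and not called (limma adjusted p = 0.829). Nars, the asparagine enzyme, had 158, 154 and 147 CPM in mLN libraries, against 155, 158 and 151 CPM in spleen libraries, at -0.02 (edgeR adjusted p = 0.889). Kars, the lysine enzyme of both compartments, had 103, 100 and 114 CPM in mLN libraries, against 117, 119 and 116 CPM in spleen libraries, at -0.16 (edgeR adjusted p = 0.141). Rars, the arginine enzyme, had 80.3, 80.2 and 68.2 CPM in mLN libraries, against 93.6, 90.5 and 80.4 CPM in spleen libraries, at -0.21 (edgeR adjusted p = 0.0862). Kars and Rars had lower means in mLN, and passed the threshold as lower under 2 and 4 of 20 alternatives, while on log2 TPM the sign of Kars changed, to 0.11. Lars was at -0.06 and Hars, the histidine enzyme, at -0.19 (edgeR adjusted p = 0.593 and 0.116).

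Among the mitochondrial enzymes, Lars2, which charges mitochondrial transfer RNA with leucine, had the largest difference of the 36 genes. The gene lies on the plus strand of chromosome 9, at bases 123366927 to 123462666 of GRCm38. It had 448, 377 and 481 CPM in mLN libraries, against 1057, 1069 and 965 CPM in spleen libraries. The lowest spleen library was above the highest mLN library by a wide margin. The log2 fold change was -1.24 (SE 0.0745, edgeR adjusted p = 1.97e-09), so mLN held 0.422 times the spleen level. Of the 12486 genes tested, 269 had a lower fold change.

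Lars2 was also the most abundant of the 36 genes per transcript length. In TPM (an abundance that accounts for transcript length and sums to the same total in each library) it had 187, 155 and 195 in mLN libraries, against 362, 363 and 331 in spleen libraries. The next mitochondrial gene, Tars2, averaged 63.8 ± 4.31 TPM in mLN and 46.7 ± 3.05 TPM in spleen (SD, n = 3 each). Lars2 held 33.3% to 37.3% of the summed TPM of the 16 mitochondrial genes in mLN libraries, and 54.7% to 59.8% in spleen libraries. In mLN its mean of 179 ± 21.6 TPM was near that of Sars at 159 ± 11.5 TPM. Lars2 was above Sars in each mLN library, where Sars had 172, 151 and 154 TPM. In spleen libraries the 352 ± 18.5 TPM of Lars2 was well above Qars at 141 ± 14.3 TPM.

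The mitochondrial large ribosomal RNA mt-Rnr2 was lower beside it. It had 778, 749 and 677 CPM in mLN libraries, against 1457, 1401 and 1305 CPM in spleen libraries, at -0.92 (SE 0.061, edgeR adjusted p = 1.58e-09). The small ribosomal RNA mt-Rnr1 had 245, 214 and 216 CPM in mLN libraries, against 420, 433 and 407 CPM in spleen libraries, at -0.90 (edgeR adjusted p = 3.09e-09). Both ribosomal RNAs and 10 of 13 tested messenger RNAs of the mitochondrial genome were lower in mLN, the messenger RNAs with a median log2 fold change of -0.79 and a range of -1.17 to -0.47. The ratio of Lars2 to mt-Rnr2 in CPM was 0.576, 0.503 and 0.709 in mLN libraries, against 0.726, 0.763 and 0.74 in spleen libraries. The ratio was lower in each mLN library than in any spleen library, with mLN replicate 3 close to the spleen range. A two-sided exact permutation test gave p = 0.1, the smallest that 3 against 3 libraries allows.

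Sequence sharing between Lars2 and the ribosomal RNAs was looked for because it could move reads from one to the other. The 9 annotated Lars2 transcripts gave 0 alignments to mt-Rnr1 or mt-Rnr2 at an E-value under 1e-05 (blastn, word size 7). The best had an E-value of 0.018. The expected counts of Lars2, mt-Rnr1 and mt-Rnr2 were whole numbers, to the decimals deposited, in 6 of 6 libraries. RSEM gives fractions to genes that share reads, and 5 of the 36 synthetase genes had a fractional count in some library. These were Aars, Farsb, Cars2, Fars2 and Iars2. Nuclear ribosomal RNA was not compared with Lars2 here.

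**Figure D3:**
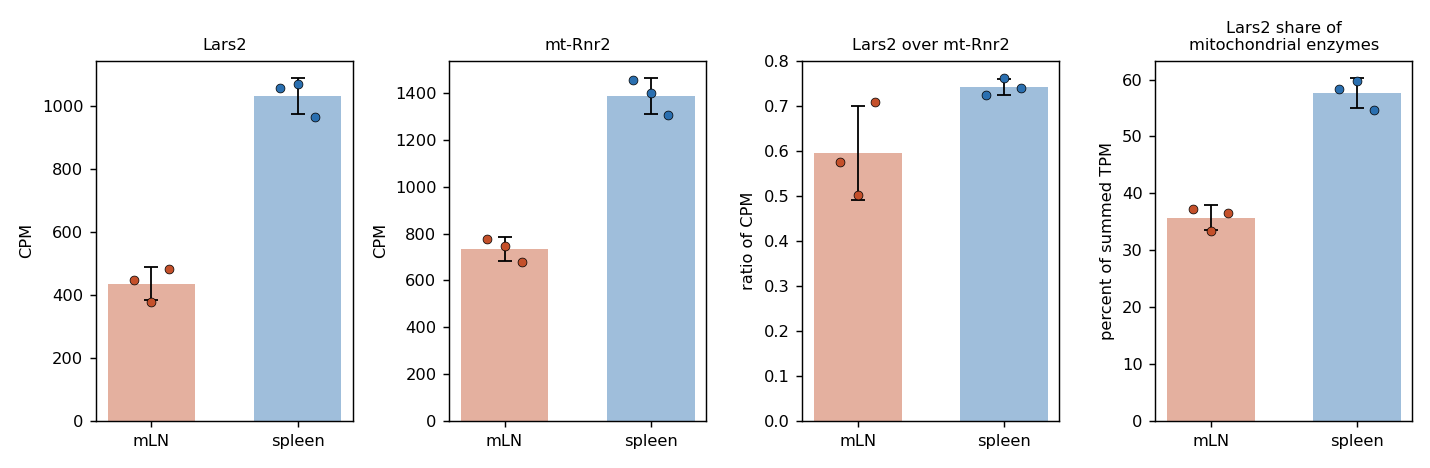
Lars2 and mt-Rnr2 in CPM, their ratio, and the share of Lars2 in the summed TPM of the 16 mitochondrial synthetase genes, in 3 mLN and 3 spleen libraries. Bars are means, error bars SD and points libraries. All 4 quantities are lower in every mLN library than in any spleen library.

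The other mitochondrial genes did not follow Lars2. Aars2, the mitochondrial alanine enzyme, had 20.9, 24 and 20 CPM in mLN libraries, against 13.6, 14.9 and 15 CPM in spleen libraries, higher in mLN without overlap at 0.57 (SE 0.148, edgeR adjusted p = 0.00515). With a GC trend removed it was at 0.36 and not called (edgeR adjusted p = 0.0653). Vars2, the valine enzyme, had 39.8, 45.2 and 53.9 CPM in mLN libraries, against 30.9, 31.8 and 36.8 CPM in spleen libraries, higher at 0.48 (SE 0.12, edgeR adjusted p = 0.00397). By limma it was not called on log2 TPM, at 0.58 (adjusted p = 0.108), or on centred log2 TPM, at 0.34 (adjusted p = 0.367). Both are the partners of cytosolic genes that were also higher. Vars2 shares 8.5% of its exonic bases with an antisense gene, Gm20483, that averaged 1 count per library.

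Of the mitochondrial genes that were not called, Tars2 was the most abundant. Tars2, the threonine enzyme, had 81.6, 76.1 and 87.6 CPM in mLN libraries, against 74, 70.2 and 70.7 CPM in spleen libraries, at 0.19 (edgeR adjusted p = 0.0932). Its groups did not overlap, and it passed the threshold under 5 of 20 alternatives. Cars2 had 40.9, 42.3 and 48.2 CPM in mLN libraries, against 41.6, 42 and 39.9 CPM in spleen libraries, at 0.09 (edgeR adjusted p = 0.56). Hars2 had 40.4, 41.4 and 42.3 CPM in mLN libraries, against 38.3, 39.8 and 34.3 CPM in spleen libraries, at 0.14 (edgeR adjusted p = 0.334). Hars2 and Hars face each other on opposite strands and share 195 exonic bases. Rars2 had 15.5, 21.7 and 15 CPM in mLN libraries, against 21.1, 24.5 and 17.9 CPM in spleen libraries, at -0.29 (edgeR adjusted p = 0.204), with overlap. Iars2 shares 22.9% of its exonic bases with Rab3gap2 on the opposite strand, and at -0.17 was not called (edgeR adjusted p = 0.176). The lowest counts were those of Pars2, the proline enzyme, at 77 to 220 per library, with a log2 fold change of -0.46 and an SE of 0.222 (edgeR adjusted p = 0.128).

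Set in 16 pairs by amino acid, with Eprs in both the glutamate and the proline pair, the partners were called higher together in 2 pairs, alanine and valine. In 5 pairs (cysteine, isoleucine, methionine, tryptophan and tyrosine) the cytosolic gene was called and the mitochondrial gene was not. Leucine was the pair with a call for the mitochondrial gene alone, and 8 pairs had none. The phenylalanine pair was counted with Farsa alone and is among the 8, although Farsb, the other cytosolic subunit, was called lower. The difference between partners was not tested. In spleen libraries the cytosolic gene had more TPM than its partner in 13 of 16 pairs, and Lars had 0.127 times the TPM of Lars2.

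The cytosolic genes had higher levels than the mitochondrial genes in both tissues. The median TPM of the 20 cytosolic genes was 56.7 ± 4.57 in mLN and 46.5 ± 0.466 in spleen (SD, n = 3 each), and that of the 16 mitochondrial genes was 16.8 ± 0.258 in mLN and 15.6 ± 0.913 in spleen. By mean TPM the order after Lars2 was Sars, Qars, Nars, Kars and Vars in mLN, and Qars, Sars, Nars, Kars and Dars in spleen, where Sars and Qars differed by less than their spread. Vars stood at rank 6 in mLN and rank 14 in spleen. Wars2 was the lowest in both, at 4.93 ± 0.451 TPM in mLN and 4.21 ± 0.492 TPM in spleen. TPM of all genes ran higher in mLN, with a median log2 difference of 0.21, so TPM levels are set side by side here and not read as changes.

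**Figure D4:**
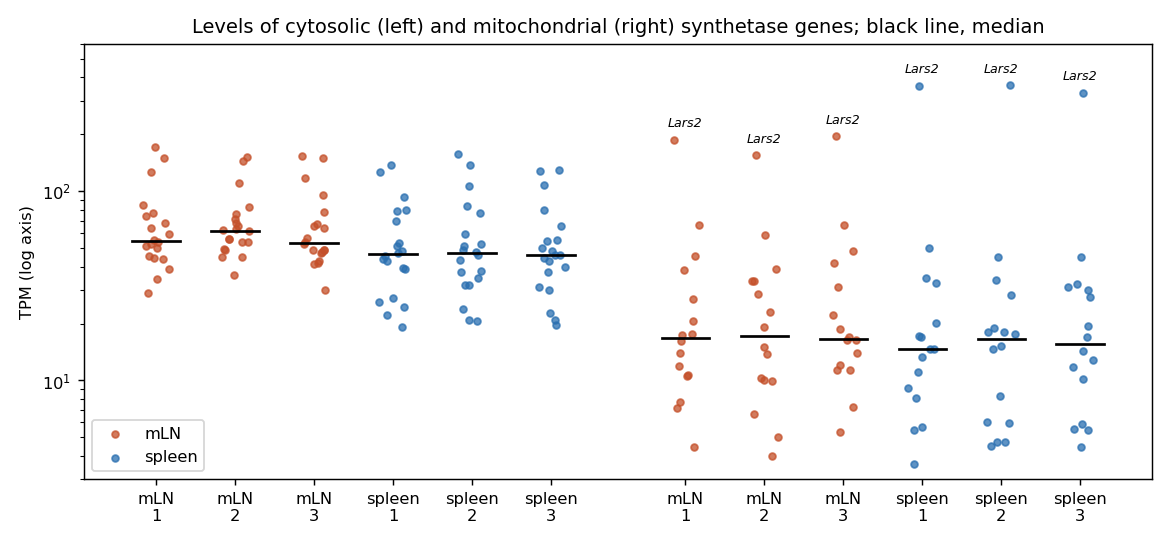
TPM (log axis) of the 20 cytosolic genes (left) and 16 mitochondrial genes (right) in each mLN and spleen library. Points are genes and black lines medians. Lars2 is the highest gene in every library, and the median of the mitochondrial genes lies below that of the cytosolic genes in each.

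The share of synthetase transcripts in cytosolic genes turned on Lars2. Cytosolic genes held 73.2%, 75.1% and 71.7% of the summed TPM in mLN libraries, against 64.3%, 65.5% and 64.5% in spleen libraries. The shares did not overlap, with a difference of 8.58 percentage points between the means. Without Lars2 they were 81.3%, 81.9% and 80% in mLN libraries, against 81.2%, 82.5% and 80.1% in spleen libraries, and the groups overlapped. By CPM the summed level of the 20 cytosolic genes was 2000 ± 3.95 in mLN and 1904 ± 25.3 in spleen, and that of the 15 mitochondrial genes without Lars2 was 475 ± 21.4 in mLN and 449 ± 5.19 in spleen. In cell samples of this kind, fewer cells of a type and less RNA per cell cannot be told apart.

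Calls in these libraries went with transcript length. Of all genes of 2000 to 3000 nucleotides, 15.3% were higher and 10.5% lower in mLN, while of those up to 1000 nucleotides 0.774% were higher and 29.8% lower. Synthetase genes had mean lengths of 1371 nucleotides (Qars) to 11294 nucleotides (Mars2). Of the 14 synthetase genes of 2000 to 3000 nucleotides, 5 were higher and 1 lower. With the trend on length removed, all 9 higher genes were still called, with Tars2 added, and the lower genes were Dars, Iars2 and Lars2. Qars, at 1371 nucleotides, and Farsb, at 1860 nucleotides, were no longer called.

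Around the synthetases, 8 lists of related genes held 106 tested genes, of which 23 were higher in mLN, or 21.7%, and 15 lower, or 14.2%, beside the 16.1% and 13.5% of all genes. Without spleen replicate 1 or spleen replicate 2 there were 15 higher. Among genes that process or carry transfer RNA, 5 of 18 were higher and 3 lower, and on centred log2 TPM 1 was higher and 2 lower. Elac2, which trims the 3′ ends of precursors, averaged 48.5 ± 3.66 CPM in mLN and 33.7 ± 2.99 CPM in spleen (log2 fold change 0.53, edgeR adjusted p = 0.000768). Xpot, the export receptor for transfer RNA, was also higher, at 0.38 (edgeR adjusted p = 0.00231). Ssb, which encodes the La protein that binds new polymerase III transcripts, was lower at -0.44, and Dtd1, which removes D-amino acids from transfer RNA, at -0.68 (edgeR adjusted p = 0.000276 and 0.000622).

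Downstream of charging, the elongation factor that brings charged transfer RNA to the ribosome was lower in mLN. Eef1a1 averaged 13125 ± 383 CPM in mLN and 18355 ± 641 CPM in spleen (log2 fold change -0.48, edgeR adjusted p = 6.95e-07). Its exchange factor subunits Eef1b2, at -0.45, and Eef1d, at -0.37, were lower as well (edgeR adjusted p = 2.46e-06 and 0.000143), and Eef1g, at 0.06, was not called. Gspt1, a termination factor, was higher at 0.26 (edgeR adjusted p = 0.00941). Ribosomal protein genes, as above, also took a smaller share of counts in mLN. The list of 9 elongation and termination genes had 1 higher and 3 lower, beside 16.1% and 13.5% of all genes. With the length trend removed 3 were higher and 2 lower, and on log2 TPM 4 were higher and 2 lower. On centred log2 TPM 0 were higher and 3 lower. Of 16 genes of mitochondrial translation, Mtif3, an initiation factor, was lower at -0.35 (edgeR adjusted p = 0.0357) and 0 were higher. These counts stand beside the same 16.1% higher and 13.5% lower of all genes. The list median was -0.01.

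Genes for amino acid transporters were higher in 7 of 16 cases and lower in 0, beside 16.1% and 13.5% of all genes. With the length trend removed 5 were higher, and on centred log2 TPM 2 were. Slc7a5, the large neutral amino acid transporter, averaged 62.1 ± 3.65 CPM in mLN and 34.1 ± 2.84 CPM in spleen (log2 fold change 0.87, edgeR adjusted p = 1.55e-06). Slc7a1, the cationic amino acid transporter, averaged 113 ± 3.09 CPM in mLN and 67.5 ± 1.96 CPM in spleen (0.74, edgeR adjusted p = 5.88e-07). Slc38a1, a glutamine transporter, was at 0.46 and Slc36a1, a lysosomal transporter, at 0.33 (edgeR adjusted p = 3.27e-05 and 0.0117). The list median was 0.29, beside -0.01 for all genes.

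The ATF4 response list, some of whose members are transporters of the preceding list, was mixed. Of 30 genes, 21 were tested, 5 were higher, 3 were lower and 13 were not called, beside 16.1% higher and 13.5% lower of all genes. With the length trend removed 1 was lower, and on log2 TPM 8 were higher and 0 lower. On centred log2 TPM 3 were higher and 0 lower. The list median was -0.02. Atf4 itself averaged 139 ± 7.11 CPM in mLN and 141 ± 5.21 CPM in spleen, at -0.02 (edgeR adjusted p = 0.845). Besides Slc7a1, Slc7a5 and Slc3a2, the higher genes were Shmt2, a mitochondrial enzyme of serine and folate metabolism, at 0.66 (edgeR adjusted p = 3.38e-05), and Ddit4, an inhibitor of mTORC1 signalling, at 0.37 (edgeR adjusted p = 0.0289). The lower genes were Ddit3, Psph and Slc7a11, named after their values were seen. Slc7a11, the cystine transporter, had means of 0.218 CPM in mLN and 0.981 CPM in spleen. Its mLN mean was near the level of 3 counts, 0.15 to 0.227 CPM. It passed the filter through the spleen libraries, so its direction was set by the filter and its call is a description only.

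In the GCN2 and eIF2 list, 4 of 16 genes were higher and 3 lower, beside 16.1% and 13.5% of all genes. On log2 TPM 5 were higher and 0 lower, and on centred log2 TPM 3 were higher and 1 lower. Gcn1, the ribosome-bound activator of GCN2, averaged 240 ± 16.1 CPM in mLN and 153 ± 21.1 CPM in spleen (log2 fold change 0.65, edgeR adjusted p = 7.94e-06). Ppp1r15b and Ppp1r15a, which direct the phosphatase that reverses eIF2 phosphorylation, were higher at 0.51 and 0.52 (edgeR adjusted p = 9.38e-06 and 0.000466). Eif2s2, the beta subunit of eIF2, was lower at -0.50 (edgeR adjusted p = 2.63e-05). Eif2ak4, which encodes GCN2, was at 0.11 and not called (edgeR adjusted p = 0.673).

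In the list of RNA polymerase III and MYC genes, 4 of 12 tested genes were higher and 0 were lower, beside 16.1% and 13.5% of all genes. On log2 TPM 8 were higher, and on centred log2 TPM 3 were. The list median was 0.22. Myc averaged 99.5 ± 9.75 CPM in mLN and 59.9 ± 0.472 CPM in spleen (log2 fold change 0.73, edgeR adjusted p = 2.29e-06). Polr3e and Polr3d, subunits of the polymerase that makes transfer RNA, were at 0.38 and 0.59 (edgeR adjusted p = 0.00209 and 0.0041), and Brf1, its initiation factor, at 0.26 (edgeR adjusted p = 0.0265). Transfer RNAs themselves were not analysed here.

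**Figure D5:**
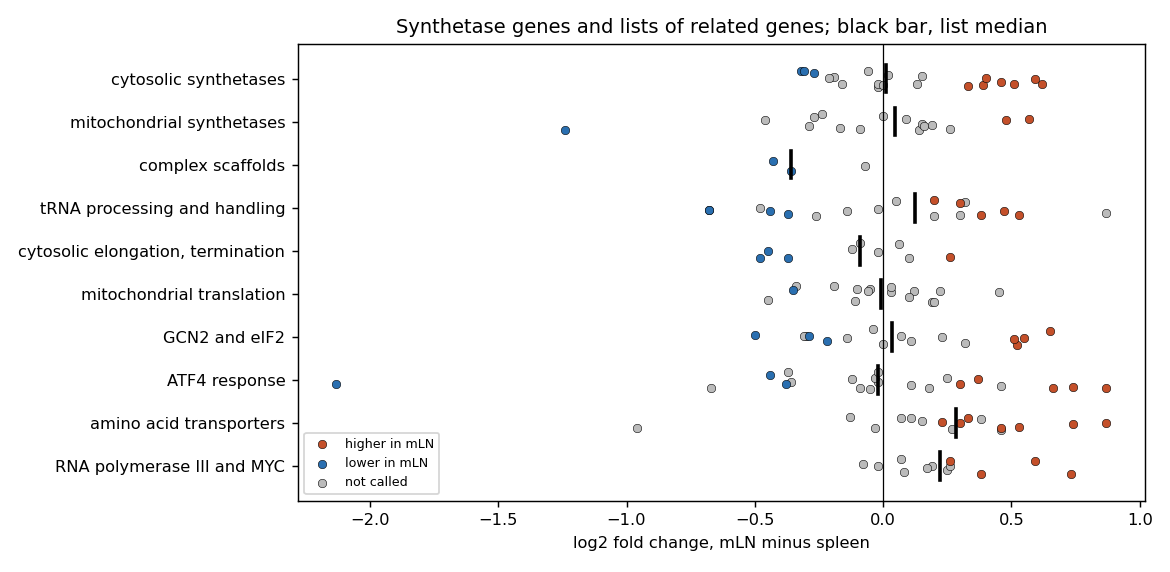
Log2 fold change (mLN minus spleen) of the tested genes of the 2 synthetase groups and of 8 related lists. Each point is a gene, coloured by its call, and black bars are list medians. The amino acid transporter list has the highest median, 0.29, and the list of complex scaffolds the lowest, -0.36.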

How the data were processed

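Naive CD4+ T cells were profiled in 3 mLN and 3 spleen libraries. Per the labels' protocols, libraries were made with NEBNext Ultra II Directional chemistry from RNA extracted with RNAiso Plus. Per the submitters' processing notes, STAR and RSEM were run on mm10, while versions, annotation release and strand setting are not given in those sources. Per the file headers, the deposited expected counts are estimated read counts of RSEM for each gene, without normalization. Per the file headers, the deposited TPM and FPKM values were scaled by the authors with the effective length of each gene, and FPKM was used only to look at its sums. Depth was 13205499 to 20054205 counts per library, where 3 counts correspond to 0.15 to 0.227 CPM, for counting error only.

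Expected counts were rounded, filtered with filterByExpr and scaled by TMM factors. The test was edgeR's two-sided robust quasi-likelihood F test with tissue as the only term and Benjamini-Hochberg adjustment over 12486 genes with 0.05 as the threshold. Each log2 fold change is mLN minus spleen, and its standard error was taken as its size divided by the root of the F statistic. Coordinates, exon overlaps and transcripts came from GENCODE vM21 on GRCm38, the assembly that mm10 names, and symbols were given to 55141 of 55487 identifiers. Any pair of replicates exceeded sampling noise (chi-square per degree of freedom 5.66 to 12). The members and the lists were chosen with earlier results of these data known. Values in every library are given for the called members, for the 4 uncalled members of each location with the highest TPM, for mt-Rnr1 and mt-Rnr2 and, beside their promoters or partners, for Gars, Tars and Farsa. Each related list names up to 4 genes with the smallest p, with Atf4 and Myc. Eef1g, Eif2ak4, Ddit4, Ddit3, Psph and Slc7a11 are named beyond that rule. Some other called genes of these lists are not named. Fits were tested on simulated data.

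Alternatives were DESeq2, limma-voom, scaling by RLE or by upper-quartile factors, limma on log2 TPM plus 1 (also centred on each library's median) or plus 0.1, no filter, a filter of 5 CPM in 3 libraries, a threshold of 0.01, a block for the replicate number, removal of a loess trend (span 0.3) on transcript length, scaling without genes of the mitochondrial genome, rRNA and ribosomal proteins, and each library left out in turn. Removal of a trend on GC content, the TPM ratio of Lars2 to mt-Rnr2, and the counts over related lists were added after seeing the data. The tools were edgeR 4.0.16, DESeq2 1.42.0, limma 3.58.1 and data.table (version 1.17.8) in R 4.3.3, blastn 2.17.0, and pandas 2.3.3, numpy 2.4.6 and matplotlib 3.10.9 in Python 3.11.15.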

Additional observations from a re-analysis of the deposited data

How the results depend on the processing

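Of the 13 called synthetase genes, 5 (Vars, Yars, Mars1, Aars and Lars2) kept their direction and their call under all 20 alternatives. Their log2 fold changes ran from 0.39 to 0.84 for Vars, 0.54 to 0.95 for Yars, 0.40 to 0.85 for Mars1, 0.33 to 0.91 for Aars and -1.33 to -0.98 for Lars2. Leaving out each library in turn gave 7 to 9 synthetase genes higher and 2 to 4 lower, 1500 to 1970 of all genes higher and 1324 to 1710 lower, and 15 to 25 related genes higher and 10 to 13 lower. The lower synthetase genes numbered 2 at a threshold of 0.01 and 2 with a GC trend removed (Qars and Lars2), and Aars2 lost its call there, with an adjusted p of 0.0653. On log2 TPM the median of all genes moved to 0.21, and 1 synthetase gene (Lars2), 384 of all genes and 3 related genes were lower, with 36 related genes higher. A pseudocount of 0.1 gave 1, 389, 3 and 36 for these counts. Centred on each library's median, log2 TPM gave 5 synthetase genes higher and 1 lower, 798 of all genes higher and 947 lower, and 10 related genes higher and 8 lower. All genes lower in mLN numbered 1069 at a threshold of 0.01 and 1116 with the length trend removed. Related genes numbered 14 higher and 9 lower at a threshold of 0.01, 9 lower with the length trend removed and 8 lower with the GC trend removed. The cytosolic share differed by 12.5 percentage points in CPM and by -0.211 percentage points of TPM without Lars2. The fall of the difference without Lars2 comes from the omission itself, and the causes of the other moves were not tested.

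Fold changes that changed sign belonged to Qars, which lost its call, and to genes that were not called. On log2 TPM they were Eprs 0.23, Hars 0.07, Kars 0.11, Lars 0.17, Nars 0.21, Qars 0.07, Sars 0.28, Fars2 0.11, Iars2 0.07, Wars2 0.19 and Yars2 0.06. With a pseudocount of 0.1 they were Eprs 0.24, Hars 0.07, Kars 0.11, Lars 0.18, Nars 0.21, Qars 0.07, Sars 0.28, Fars2 0.12, Iars2 0.07, Wars2 0.23 and Yars2 0.06. Centred TPM gave Sars 0.03. Removing the length trend gave Nars 0.03, Sars 0.07 and Mars2 -0.13, and removing the GC trend gave Eprs 0.14, Lars 0.04, Nars 0.08, Sars2 -0.07 and Wars2 0.02. Upper-quartile factors gave Tars -0.03 and Ears2 -0.04, and the stricter filter Ears2 -0.01. Leaving out each library in turn gave ranges that include 0 for Tars (-0.05 to 0.06), Ears2 (-0.10 to 0.08), Sars2 (-0.17 to 0.37) and Eprs (-0.09 to 0.02). With its changed sign Sars was called higher on log2 TPM and with a pseudocount of 0.1 (limma adjusted p = 0.0338 and 0.0333). Eprs was called higher with the GC trend removed (edgeR adjusted p = 0.049).

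With the replicate number as a block, 10 synthetase genes were higher and 7 lower (Kars, Rars and Pars2 added to the 4), and 2566 of all genes were higher and 2140 lower. Same-numbered libraries of the 2 tissues had deviations correlated at 0.079, 0.033 and 0.138, so the numbers were not taken to pair the samples, although each library correlated best with its own number, as a hint from the data. The fewest counts were those of Pars2, Wars2, Fars2, Yars2, Nars2 and Sars2, at most 362 in any library, with standard errors of 0.167 to 0.227, against 0.0644 to 0.111 for the cytosolic genes.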
